A study of Mus musculus with 60 samples.

Results

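Among 21887 mouse protein-coding genes, 883 had at one and the same gene end both an acetylated histone mark and the repressive mark H3K27me3. The 883 genes contributed 923 gene ends of 43774. A gene end was a member when an H3K27me3 peak lay within 1000 bp of it in 2 or more of 4 surgical conditions, and an H3K9ac peak, or an H3K27ac peak, did so in 2 or more. The members were thus chosen by the measured peaks of H3K27me3, H3K9ac and H3K27ac, and counts of these 3 marks below are descriptions. Chromatin accessibility by ATAC-seq did not enter the choice.

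The tissue was the L4-L6 dorsal root ganglion, which holds the cell bodies of the sensory neurons of the sciatic nerve, from C57BL/6 mice 6-8 weeks old, taken 24 h after surgery. The surgeries were a cut of the sciatic nerve (SNA) with its control, sham surgery on that nerve (Sham), and a cut through the spinal dorsal columns (DCA) with its control, laminectomy alone, which removes vertebral bone (Lam). SNA cuts the peripheral branch of the sensory axon and DCA its central branch. Ganglia of 10 mice were pooled for each of 2 ChIP-seq samples per mark and surgery, and ganglia of 1 mouse for each of 3 ATAC-seq samples per surgery. The deposited peak lists join the replicates, so each of the 16 lists (4 assays in 4 surgeries) stands alone, no replicate error can be computed, and no difference between surgeries was tested. All intervals below are Wilson 95% intervals and cover counting error only.

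Acetylation of histone H3 at lysine 9 or 27 marks active promoters and enhancers. H3K27me3 is placed by Polycomb repressive complex 2 and read by Polycomb repressive complex 1, and it covers the promoters of developmental regulators that a cell keeps silent. Lysine 27 of a single H3 tail carries acetyl or methyl groups, never both. Peaks of H3K27ac and H3K27me3 at one gene end in a ganglion can come from different cells, different alleles or neighbouring nucleosomes. This exclusion does not apply to H3K9ac, which is on another lysine. Ganglia hold neurons, satellite glia, Schwann cells, macrophages and vessel cells, and in such bulk samples fewer cells with a mark and less of it per cell cannot be told apart.

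Promoter sequence is shown for 6 members of the gene lists described below, chosen after their values were seen to differ in CpG content; members with fewer or more CpG than these are not shown. Each sequence runs 5′ to 3′ on the gene's strand over 300 bases, from 250 before a RefSeq transcript start to 50 after it (GRCm38.p6), and capitals mark every CpG dinucleotide, the only motif counted. Hoxa10 (chr6:52240805-52241104, minus strand) held 12 CpG and Hoxd9 (chr2:74697513-74697812, plus strand) held 20.
Hoxa10: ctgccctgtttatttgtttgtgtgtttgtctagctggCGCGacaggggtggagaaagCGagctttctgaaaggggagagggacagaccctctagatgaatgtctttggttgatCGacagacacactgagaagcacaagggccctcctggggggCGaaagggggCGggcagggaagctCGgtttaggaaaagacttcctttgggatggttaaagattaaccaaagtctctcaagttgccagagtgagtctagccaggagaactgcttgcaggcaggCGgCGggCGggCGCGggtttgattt
Hoxd9: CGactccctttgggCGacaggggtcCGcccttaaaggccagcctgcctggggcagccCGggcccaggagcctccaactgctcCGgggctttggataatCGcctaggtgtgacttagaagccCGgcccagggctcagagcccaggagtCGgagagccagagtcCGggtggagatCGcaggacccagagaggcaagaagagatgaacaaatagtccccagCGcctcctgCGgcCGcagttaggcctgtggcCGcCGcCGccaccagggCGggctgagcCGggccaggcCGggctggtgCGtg
Msx1 (chr5:37824536-37824835, minus strand), a homeobox factor of craniofacial and limb development, held 29 CpG. Tubb3 (chr8:123411303-123411602, plus strand), the neuronal beta-tubulin, held 26.
Msx1: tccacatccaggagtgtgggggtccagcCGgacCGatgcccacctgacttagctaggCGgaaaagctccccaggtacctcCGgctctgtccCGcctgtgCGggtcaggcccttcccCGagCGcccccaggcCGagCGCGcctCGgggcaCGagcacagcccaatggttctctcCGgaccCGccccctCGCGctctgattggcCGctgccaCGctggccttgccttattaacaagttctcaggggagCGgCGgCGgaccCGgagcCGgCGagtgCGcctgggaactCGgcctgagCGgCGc
Tubb3: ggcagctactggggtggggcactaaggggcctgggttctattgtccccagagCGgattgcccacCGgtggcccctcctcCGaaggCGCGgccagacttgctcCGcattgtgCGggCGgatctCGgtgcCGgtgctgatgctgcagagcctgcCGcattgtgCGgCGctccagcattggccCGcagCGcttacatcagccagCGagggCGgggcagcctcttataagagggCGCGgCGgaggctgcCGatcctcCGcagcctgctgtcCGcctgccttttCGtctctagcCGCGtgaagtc
Calca (chr7:114636308-114636607, minus strand), which encodes the pain peptide CGRP, held 8, and this transcript starts 553 bp from the outer annotated end of the gene. Slc1a3 (chr15:8710758-8711057, minus strand), the glial glutamate transporter GLAST, held 3.
Calca: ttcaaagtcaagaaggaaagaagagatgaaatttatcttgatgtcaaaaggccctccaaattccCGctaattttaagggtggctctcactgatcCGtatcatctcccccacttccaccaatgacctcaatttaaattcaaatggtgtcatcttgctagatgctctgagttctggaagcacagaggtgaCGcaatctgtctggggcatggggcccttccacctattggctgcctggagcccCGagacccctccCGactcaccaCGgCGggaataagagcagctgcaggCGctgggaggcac
Slc1a3: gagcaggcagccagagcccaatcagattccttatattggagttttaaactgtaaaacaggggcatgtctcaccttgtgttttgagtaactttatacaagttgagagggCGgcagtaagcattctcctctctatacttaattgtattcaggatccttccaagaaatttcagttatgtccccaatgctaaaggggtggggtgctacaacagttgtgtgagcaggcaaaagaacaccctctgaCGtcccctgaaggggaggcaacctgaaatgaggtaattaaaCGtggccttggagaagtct

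Promoters of members stood between the acetylated and the H3K27me3 promoters in CpG content. A promoter sequence was matched for 477 of the 528 members at a known gene start, and these had a median of 16 CpG in 300 bases, with quartiles of 9 and 23. Starts with acetylation only had a median of 22, starts with H3K27me3 only 6, starts with neither 2, and all 15752 matched starts 14. A promoter with a GC content of at least 50% and an observed-to-expected CpG ratio of at least 0.6 was called CpG-rich. That applied to 47.0% of member promoters (42.5 to 51.4%), 73.2% of those with acetylation only (72.3 to 74.2%), 24.1% of those with H3K27me3 only (22.4 to 26.0%) and 46.2% of all. The share for members lay close to that over all promoters, and single members ran from 3 CpG at Slc1a3 to 29 at Msx1 among those printed. The genes themselves had a median length of 22906 bp, close to the 22237 bp of genes with acetylation only, against 14189 bp for genes with H3K27me3 only and 17169 bp for all protein-coding genes.

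**Figure D1:**
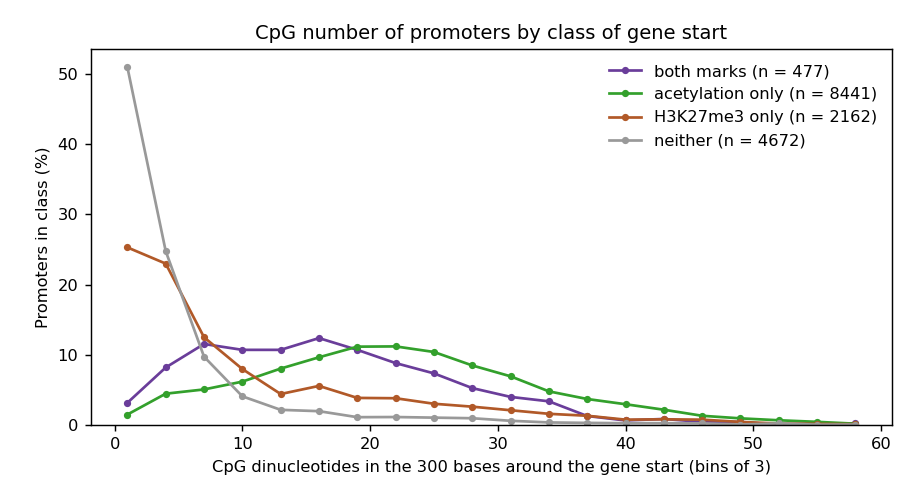
Number of CpG dinucleotides in the 300 bases around the gene start (x axis, bins of 3) against the share of promoters of each class in percent (y axis), for starts with both marks, acetylation only, H3K27me3 only and neither. The curve for both marks is broad, with its median of 16 between those of H3K27me3 only (6) and acetylation only (22).

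Of the 923 member ends, 528 were gene starts, 130 were the 3′ ends of genes, and 265 belonged to genes whose strand was not given in the tables used here. H3K9ac alone met the rule at 374 ends, H3K27ac alone at 138 and both at 411. Both ends were members in 40 genes, among them Hspb1, Sox2 and Foxd3. Ends within 1000 bp of each other formed 885 separate loci, and 35 of these held 2 or more genes, so that neighbouring genes shared peaks. None of the 1932 ends on the X chromosome and none of the 512 on the Y was a member. The lists are thin on the X, which holds 0.123 to 0.141% of the H3K27me3 peaks.

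Acetylation was less frequent at ends with H3K27me3 than at other ends. Of 7450 ends with H3K27me3 in 2 or more lists, 12.4% (11.7 to 13.2%) were acetylated, against 38.7% of the 36324 ends without H3K27me3. At gene starts the shares were 17.6% of 2998 and 62.7% of 14494. The threshold of 2 lists decided much of the membership: 654 member ends had H3K27me3 in exactly 2 lists, 229 in 3 and 40 in 4, and a further 2037 acetylated ends had it in a single list. On the acetylation side, 320 ends had their better mark in exactly 2 lists, 286 in 3 and 317 in 4, and 658 ends with H3K27me3 missed membership with acetylation in 1 list. Within the lists of one surgery, both marks were present at the end in only 1 surgery at 258 ends. They were present in 2 surgeries at 519 ends, in 3 at 97 and in 4 at 11, while at 38 ends no list pair of any surgery held both.

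The H3K27me3 peaks behind these counts had low fold enrichment and low −log10 p by the authors' own values, which here describe peaks within a list. The median fold enrichment of the strongest H3K27me3 peak at a member end in Sham was 1.07 and its median −log10 p was 0.845. In their own Sham lists, the median fold at member ends was 3.61 for H3K9ac and 4.35 for H3K27ac. The strongest peaks there had median widths of 497.5 bp for H3K9ac and 558 bp for H3K27ac, against 2683.5 bp for H3K27me3. Folds of such unlike peaks are not compared between marks. A q of at most 0.05 for H3K27me3 in any list was reached at 7 member ends in 6 genes, and a −log10 p of at least 2 at 36 ends. Of the 6527 ends with H3K27me3 only, 68 and 315 did so. The 6 genes were Stk33, a protein kinase, Phlda2, an imprinted gene that limits placental growth, Hjurp, the chaperone of the centromeric histone, Col6a2, a chain of collagen VI, H2bu2, a histone H2B gene, and Slc43a1, an amino acid transporter. Col6a2 had an H3K27me3 fold of 2.15 in Sham, 1.56 in SNA and 1.29 in Lam at its start and no peak in DCA, with H3K27ac folds of 3.75 in Sham, 3.92 in Lam and 3.39 in DCA. Slc43a1 had H3K27me3 folds of 2.17 in Sham and 1.96 in Lam at its start and no peak after either axotomy, while H3K9ac and H3K27ac were present in all 4 lists.

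Accessibility, which the rule did not use, was far more frequent at members than at ends with H3K27me3 only, and somewhat less frequent than at ends with acetylation only. These classes were set by acetylation in the same surgeries. An ATAC peak lay at 750 member ends in Sham, 778 in Lam, 802 in SNA and 791 in DCA, or 81.3% (78.6 to 83.6%), 84.3% (81.8 to 86.5%), 86.9% (84.6 to 88.9%) and 85.7% (83.3 to 87.8%). In Sham the share was 86.9% at ends with acetylation only, 39.0% with H3K27me3 only and 18.6% with neither. Gene starts alone gave 87.9% (84.8 to 90.4%) for members, 93.8% for acetylation only and 51.6% (49.6 to 53.6%) for H3K27me3 only. Within the Sham list the strongest ATAC peak at a member start had a median −log10 p of 8.94, between 6.25 at starts with H3K27me3 only and 23.6 at starts with acetylation only. An ATAC peak was present in all 4 lists at 655 member ends and in none at 41. Hoxa7, a trunk patterning factor, was one of the 41, with H3K9ac in all 4 lists at its 3′ end.

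**Figure D2:**
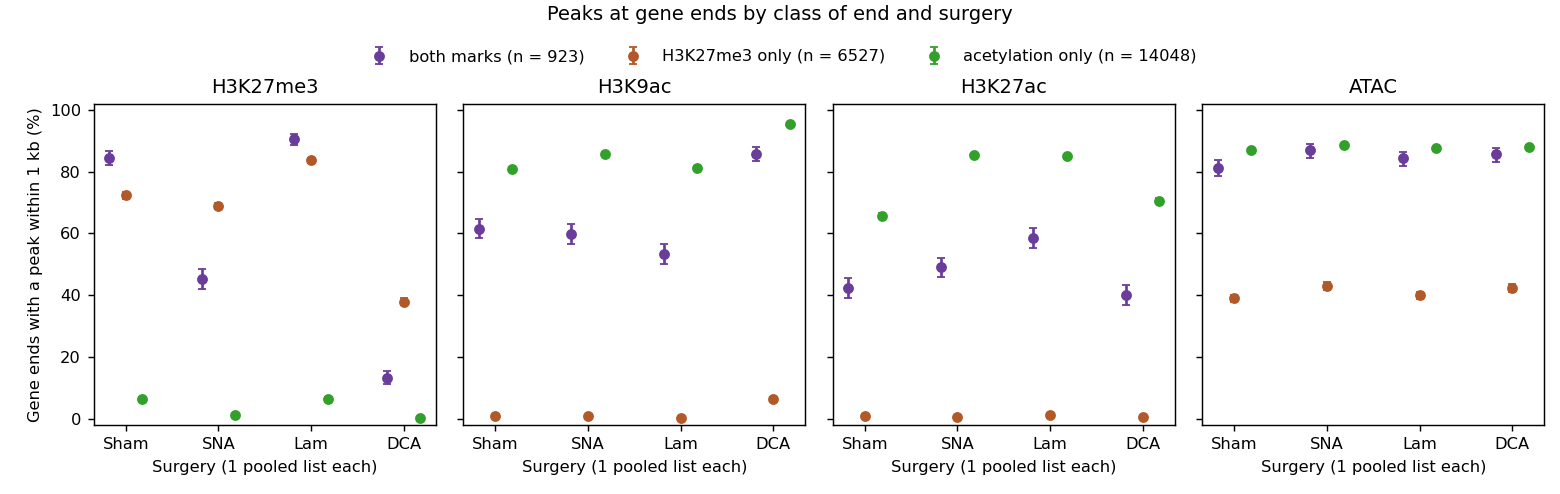
Share of gene ends with a peak within 1 kb (y axis, percent) in each surgery (x axis) for H3K27me3, H3K9ac, H3K27ac and ATAC, by class of gene end; points are shares in 1 pooled list and bars are Wilson 95% intervals. H3K27me3 at ends with both marks stands at 84.5% in Sham and 90.6% in Lam, and at 45.3% in SNA and 13.1% in DCA, while ATAC stays between 81.3 and 86.9%.

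H3K27me3 at member ends was recorded mainly after the control surgeries. It was present at 780 ends (84.5%) in Sham, 836 (90.6%) in Lam, 418 (45.3%) in SNA and 121 (13.1%) in DCA. Of the 923 ends, 462 had it in both controls and in neither axotomy, or 50.1% (46.8 to 53.3%), against 20.4% (19.4 to 21.4%) of the ends with H3K27me3 only. Over all gene ends 4.09% had this pattern. The reverse, H3K27me3 in both axotomies and neither control, held at 6 member ends (0.650%), of Mctp2, Zfp493, Calhm5, Tmem100, St6galnac1 and Smco3. It held at 227 ends with H3K27me3 only (3.48%), over a background of 0.532%. Smco3 was acetylated at lysine 9 and at lysine 27 in all 4 lists, and its H3K27me3 folds were 1.18 in SNA and 1.06 in DCA. From Sham to SNA, 126 member ends (13.7%) gained H3K27me3 and 488 (52.9%) lost it, while over all gene ends 7.22% gained and 10.9% lost. From Lam to DCA, 28 member ends (3.03%) gained H3K27me3 and 743 (80.5%) lost it, over a background of 2.8% gained and 17.5% lost. Ends with H3K27me3 only gave 9.04% and 54.7%. Between the controls, 137 member ends (14.8%) gained H3K27me3 in Lam and 81 (8.78%) lost it, over a background of 11.6% and 7.82%. Ends with H3K27me3 only gave 24.2% and 12.9%. The rule used these lists, so the counts are given beside the background without a reading.

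Membership rested largely on the control lists, and the counts depend on this. With the Sham lists left out of the rule 310 genes were members and with the Lam lists left out 285, against 640 without the SNA lists and 661 without the DCA lists. With Sham left out, SNA, which then helped to choose the ends, held H3K27me3 at 90.8% of 316 member ends, and 88.6% of the ends that differed between Sham and SNA were gains in SNA in place of 20.5%. With Lam left out, 50% of these were gains, and the gains from Sham to Lam went from 62.8% to 19.8%. Gains from Lam to DCA were 7.38% without Sham and 13.5% without Lam, in place of 3.63%.

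A list stands lower at the ends when it has no part in choosing them, so each list was also left out in turn and compared between classes. The left-out Sham list held an H3K27me3 peak at 63.0% (57.5 to 68.1%) of 316 member ends and at 60.1% (58.7 to 61.5%) of 4601 ends with H3K27me3 only. The left-out Lam list held one at 74.2% (68.9 to 78.9%) of 291 and at 73.4% (72.0 to 74.7%) of 4066. In both controls the intervals of the classes overlapped. The left-out SNA list held one at 33.5% (30.0 to 37.2%) of 665 member ends and at 58.1% (56.7 to 59.5%) of 4997 ends with H3K27me3 only, and the left-out DCA list at 9.13% (7.20 to 11.5%) of 690 and at 30.0% (28.9 to 31.2%) of 6040. In both axotomies members stood below the ends with H3K27me3 only. The list of the other axotomy still helped to choose the ends, and the classes already differed there. Without SNA, DCA held H3K27me3 at 14.7% of member ends and at 45.3% of ends with H3K27me3 only. Without DCA, SNA held it at 44.9% and 72.4%. The lower left-out shares are therefore not independent of the choice. The 4 sets of members differ, since each was chosen by another 3 surgeries, and these settings were added after the data had been seen. The lists also differed in length, with 122953 H3K27me3 peaks in Sham, 154055 in Lam, 141635 in SNA and 90011 in DCA. When all lists of an assay were reduced to the length of the shortest by −log10 p, H3K27me3 stood at 77.1% of the then 393 member ends in Sham, 78.4% in Lam, 43.0% in SNA and 20.1% in DCA. Ends with H3K27me3 only then stood at 65.2, 66.0, 60.7 and 49.7%. Ends with acetylation only, where any H3K27me3 call is by definition limited to 1 list, also had more calls in the controls than in the axotomies, with 915 such calls in Sham, 914 in Lam, 164 in SNA and 44 in DCA. Ends with neither mark, limited in the same way, had 1585 in Sham, 2439 in Lam, 1331 in SNA and 565 in DCA. These counts come from lists of full, unequal length. How much background enrichment at accessible, acetylated sites contributes to the H3K27me3 calls in Sham and Lam was not tested.

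The 4 lists also differed in where H3K27me3 lay around the start. At the 528 member starts, the share covered by an H3K27me3 peak in Sham was 48.1% at 1000 bp upstream, 56.6% at the start itself and 51.5% at 1000 bp downstream. In SNA the corresponding shares were 26.1, 10.0 and 18.9%, so that coverage was lowest close to the start. Lam gave 41.7, 42.8 and 47.0%, and DCA 6.63, 1.89 and 4.17%. At the 2470 starts with H3K27me3 only, Sham gave 44.8, 53.2 and 51.4%, Lam 46.7, 58.5 and 55.2%, SNA 39.4, 36.0 and 37.7%, and DCA 18.1, 11.9 and 14.1%. In both classes coverage in SNA and DCA was thus lower at the start than at 1000 bp on either side. H3K9ac was most frequent just inside the gene, at 200 bp in Sham (37.3% of member starts) and in Lam (35.4%), at 400 bp in SNA (35.0%) and at 300 bp in DCA (69.3%).

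**Figure D3:**
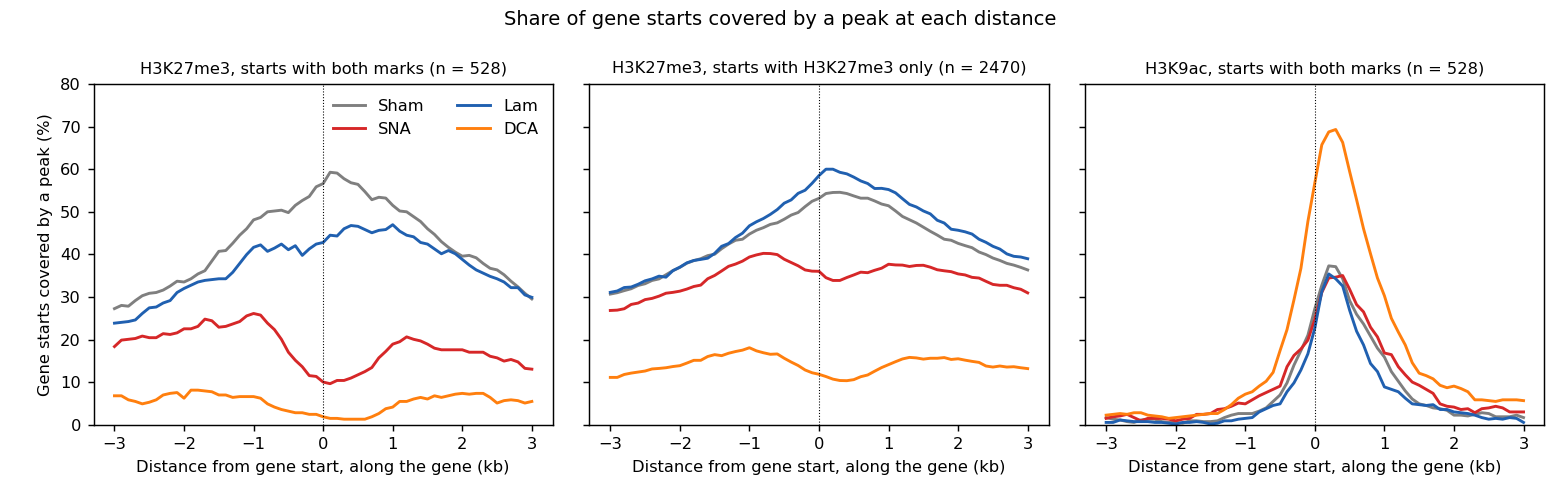
Share of gene starts covered by a peak (y axis, percent) at each distance from the start along the gene (x axis, kb), one line per surgery, for H3K27me3 at starts with both marks (left) and with H3K27me3 only (centre) and for H3K9ac at starts with both marks (right). In the left panel Sham and Lam stand at 56.6 and 42.8% at the start itself, while SNA dips to 10.0% there between 26.1% upstream and 18.9% downstream.

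Whether the 2 kinds of peak shared bases followed the same division. Where one surgery's lists held both H3K27me3 and an acetylated mark at a member end, the peaks overlapped by at least 1 bp at 481 of 614 ends in Sham, or 78.3% (74.9 to 81.4%), and at 429 of 626 in Lam, or 68.5% (64.8 to 72.0%). In SNA they overlapped at 115 of 283, or 40.6% (35.1 to 46.4%), and in DCA at 20 of 108, or 18.5% (12.3 to 26.9%). The width of H3K27me3 peaks also differed: the strongest peak at a member end had a median width of 2683.5 bp in Sham, 1592.5 in Lam, 1263.5 in SNA and 890 in DCA. How much of the difference in overlap goes with peak width was not tested. In total 712 of the 923 ends, or 77.1% (74.3 to 79.7%), had such an overlap in at least 1 surgery. Acetylation was present at 77.6% (70.1 to 83.7%) of the member ends without H3K27me3 in the Sham lists and at 78.7% (75.7 to 81.4%) of those with it. It was more frequent without H3K27me3 in SNA, at 77.0% (73.2 to 80.5%) against 67.7% (63.1 to 72.0%). Lam gave 82.8% (73.5 to 89.3%) without and 74.9% (71.8 to 77.7%) with H3K27me3, and DCA 92.5% (90.5 to 94.1%) and 89.3% (82.5 to 93.6%), with intervals that overlap. Both marks entered the rule in these same lists. The shares therefore describe the chosen ends, and no link between the marks can be drawn from them.

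H3K9ac was mostly gained and H3K27ac mostly lost at member ends from Lam to DCA. Among changed ends, the shares of gains were about those over all gene ends. As shares of ends, both changes were more frequent at member ends, which the rule chose by these marks. H3K9ac was present at 568 member ends in Sham, 493 in Lam, 553 in SNA and 792 in DCA. From Lam to DCA, 322 ends (34.9%) gained H3K9ac and 23 (2.49%) lost it, against 8.94% gained and 0.608% lost over all gene ends. Gains were thus 93.3% (90.2 to 95.5%) of the changed member ends and 93.6% of all changed ends. From Sham to SNA, 131 (14.2%) gained and 146 (15.8%) lost it, over a background of 4.8% and 2.7%. Gains were thus 47.3% (41.5 to 53.2%) of the changed member ends, which gives no direction, against 64.0% of all changed ends. With lists of equal length they were 22.0%, and with the Sham lists left out of the rule 64.2%. At equal length H3K9ac also stood lower in SNA at ends with acetylation only, at 76.9% against 83.4% in Sham. From Sham to Lam 152 member ends (16.5%) gained H3K9ac and 227 (24.6%) lost it, over a background of 3.68% and 3.97%. The share of gains went from 40.1% to 54.0% with the Sham lists left out. The H3K9ac list of DCA was also the longest, with 89647 peaks against 50332 to 74652 in the others, and with lists of equal length the gains from Lam to DCA were 73.6% (65.3 to 80.5%) of the changed ends. H3K27ac was present at 390 member ends in Sham, 540 in Lam, 452 in SNA and 370 in DCA. From Sham to SNA 211 ends (22.9%) gained H3K27ac and 149 (16.1%) lost it, over a background of 9.04% and 2.45%. With lists of equal length, however, 37.3% of the changed ends were gains in place of 58.6%. Over all changed ends 78.7% were gains. From Lam to DCA 63 (6.83%) gained and 233 (25.2%) lost it, over a background of 1.94% and 7.41%. Gains were 21.3% of the changed member ends and 20.7% of all changed ends. From Sham to Lam 226 member ends (24.5%) gained H3K27ac and 76 (8.23%) lost it, over a background of 8.74% and 1.92%.

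ATAC changed at fewer member ends. The rule did not read ATAC, but it chose ends by acetylation in the same surgeries, where ATAC peaks were frequent, so these counts are not independent of the choice. From Sham to SNA 89 member ends (9.64%) gained an ATAC peak and 37 (4.01%) lost one, so that 70.6% (62.2 to 77.9%) of the changed ends were gains. Over all gene ends 8.53% gained and 5.88% lost, and 59.2% of the changed ends were gains. From Lam to DCA 72 (7.80%) gained and 59 (6.39%) lost, over a background of 7.57% and 6.86%, a share of gains of 55.0% (46.4 to 63.2%). From Sham to Lam 88 (9.53%) gained and 60 (6.50%) lost, over a background of 7.88% and 6.71%. Gains were 59.5% (51.4 to 67.0%) of the changed ends. This share was 46.4% with each mark required in 3 or more lists and 46.9% with the Lam lists left out of the rule. The ATAC list of SNA was the longest of its assay, with 174605 peaks against 153556 in Sham.

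At some member ends H3K27me3 was in both controls only and acetylation in both axotomies only. H3K9ac was in both axotomies and neither control at 67 member ends (7.26%), over a background of 1.63%. It was in both controls and neither axotomy at 5 (0.542%), over 0.0594%. The first pattern was thus the more frequent over all gene ends too. The rule chose member ends by acetylation, so these shares are given beside the background without a reading. Of the 462 ends with H3K27me3 in both controls only, 38 had H3K9ac in both axotomies only and 11 had H3K27ac so, while 154 kept H3K9ac in all 4 lists and 98 H3K27ac. Cdk18, a cyclin-dependent kinase, belonged to the 38: at its start H3K27me3 had a fold of 1.05 in Sham and 1.13 in Lam, and H3K9ac 3.31 in SNA and 4.48 in DCA, with no other peak of either mark. Nav3, a neuron navigator gene, had H3K27me3 folds of 1.00 in Sham and 1.11 in Lam and H3K9ac folds of 2.24 in SNA and 4.19 in DCA, but H3K27ac in all 4 lists, from 4.01 to 5.75. Cd37, a leukocyte tetraspanin, and Tead2, a Hippo pathway factor, were listed with the same H3K9ac peaks, with folds of 3.10 in SNA and 4.60 in DCA, since their 3′ ends lie close together. Gjb2, the connexin 26 gene, had H3K9ac folds of 2.71 in SNA and 6.04 in DCA, and its H3K27me3 was in Sham (1.02), SNA (1.37) and Lam (1.15).

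The opposite patterns were rarer for H3K9ac. Strip2 had H3K9ac folds of 4.54 in Sham and 3.63 in Lam and none after an axotomy, while H3K27me3 and ATAC peaks were in all 4 lists. The other 4 were Rnf43, a ubiquitin ligase that removes Wnt receptors (3.70 in Sham and 3.06 in Lam), Epb41l3, a membrane skeleton protein (3.20 and 2.51), Tead1, a Hippo pathway factor (2.96 and 2.93), and Mei4 (3.20 and 3.08). For H3K27ac, 19 member ends (2.06%) had it in both axotomies only, over a background of 0.599%, and 45 (4.88%) in both controls only, over 0.601%. Macroh2a2, which encodes a histone variant of silent chromatin, had H3K27ac folds of 3.24 in SNA and 5.79 in DCA, with H3K27me3 of 1.06 in Sham and 1.14 in Lam and H3K9ac in all 4 lists. Gpr37, a receptor of glia and neurons, had H3K27ac folds of 3.84 in SNA and 4.92 in DCA. Tnfsf11, the cytokine RANKL, had H3K27ac folds of 8.95 in Sham and 6.38 in Lam only, in the same lists as its H3K27me3 (1.12 and 1.20). Scd3, a stearoyl-CoA desaturase, and Cacng4, an AMPA receptor auxiliary subunit, showed the same arrangement, with H3K27ac folds of 7.93 and 6.38 for Scd3 and 4.09 and 7.56 for Cacng4 in Sham and Lam.

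Both marks occurred together most widely at a small set of genes. H3K27me3 with at least 1 acetylated mark was present in all 4 surgeries at 11 ends, among them one end each of Nrn1, Sall2, Tlr2, Zfp800, Arfgef3 and Marveld3. Nrn1 encodes neuritin, a membrane-anchored protein that promotes neurite growth. At its left end its H3K27me3 folds were 1.20 in Sham, 1.66 in Lam, 1.22 in SNA and 1.86 in DCA, its H3K27ac folds 3.28, 2.82 and 4.87 in Sham, SNA and Lam, and its H3K9ac was in DCA (2.68). At the other end of Nrn1 H3K27ac was in Sham (5.75) and Lam (9.07) and in neither axotomy, with H3K27me3 in all 4 lists. Sall2, a zinc finger factor, had H3K27me3 folds of 1.12, 1.25, 1.09 and 1.26 and H3K9ac folds of 3.95, 4.14, 2.76 and 4.34 in Sham, SNA, Lam and DCA at its start. Tlr2, a receptor for bacterial lipoproteins, had H3K27me3 folds from 1.00 to 1.08 there, and H3K9ac in Sham (4.50), SNA (2.85) and DCA (4.60). By rank of their median H3K27me3 −log10 p, Nrn1, Esam, Bola1, Snph, Ttyh1, Hoxa10, Zfp551, Stk33, Sall2 and Ticam2 led the 82 ends where H3K27me3 and the same acetylated mark met in 3 or more surgeries. Snph, which anchors mitochondria in axons, had H3K27me3 and H3K9ac together in Sham (1.19 and 2.37), Lam (1.82 and 2.14) and DCA (1.28 and 2.99), and neither in SNA.

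Hox genes, which set position along the body axis, had the highest share of members among 14 lists of genes. Of 39 Hox genes, 11 were members, or 28.2% (16.5 to 43.8%), against 4.03% of all protein-coding genes; the interval overlaps those of several other lists. They were Hoxa7, Hoxa10, Hoxb7, Hoxb8, Hoxb9, Hoxc6, Hoxc8, Hoxc9, Hoxc10, Hoxd3 and Hoxd9. Each of the 4 Hox clusters contributed, and Hoxc10, Hoxc9, Hoxc8 and Hoxc6 formed a run of members on chromosome 15 between positions 102966796 and 103011882. An H3K27me3 end was found in 25 of the 39 and an acetylated end in 25, while 25.5% of all protein-coding genes had an H3K27me3 end and 57.3% an acetylated end. In DCA, H3K27me3 was listed at Hoxd3 (1.26) and at one end of Hoxc10 (1.14) and at no other member end of these genes.

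Individual Hox genes differed in acetylation. Hoxa10, whose promoter is printed above, had H3K27me3 folds of 1.55 in Sham, 1.35 in SNA and 1.16 in Lam and none in DCA, and H3K9ac folds of 2.75, 4.61 and 4.13 in the same lists and none in DCA. Its strongest H3K27me3 peak in SNA (chr6:52240959-52241632) overlapped the printed bases, whereas the H3K9ac peak of SNA (chr6:52240080-52240539) lay inside the gene. Hoxd9 lay in an H3K27me3 peak of Lam that ran from 74642260 to 74700935 on chromosome 2, and it had H3K27ac in Sham (4.09) and Lam (3.54) and H3K9ac in DCA (4.83). The DCA peak of H3K9ac (chr2:74697486-74698813) and the Sham ATAC peak (chr2:74697447-74698768) both covered the printed Hoxd9 promoter. Hoxc9 was strongly acetylated in all 4 lists, with H3K9ac folds of 6.73 in Sham, 3.17 in Lam, 5.85 in SNA and 6.83 in DCA, and it had H3K27me3 in SNA (1.26) and Lam (1.21). Hoxb7 and Hoxb8 were members through peaks they share, since the left end of Hoxb7 lies within 1000 bp of the right end of Hoxb8.

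Other developmental regulators were covered by H3K27me3 and rarely acetylated. All 66 other homeobox and T-box genes had an H3K27me3 end and 5 had an acetylated end, and the members were Msx1, Tbx2, Tbx3 and Tbx4, or 6.06% (2.38 to 14.6%). Msx1 had H3K27me3 folds of 1.56 in Sham, 1.11 in SNA and 1.17 in Lam and none in DCA, and H3K9ac in Sham (4.22), Lam (3.08) and DCA (2.70). The Msx1 peak of H3K27me3 in Sham (chr5:37806659-37839876) covered the printed promoter, while in SNA the strongest peak (chr5:37824863-37835011) began upstream of it. Tbx2 had the highest H3K27ac folds of these, 14.7 in Sham, 17.3 in Lam, 5.56 in SNA and 12.6 in DCA, with H3K27me3 in Sham (1.03) and Lam (1.04) only. Among 54 Sox, Fox, Gata, bHLH and Zic factors, 46 had an H3K27me3 end and the members were Sox2, Sox10, Foxc1, Foxd3 and Foxe1, or 9.26% (4.02 to 19.9%). Foxd3, a neural crest factor, had both ends as members, with H3K27ac at its start in all 4 lists (4.86, 7.27, 8.09 and 4.58 in Sham, SNA, Lam and DCA) and H3K27me3 there in Sham (1.09) and Lam (1.18).

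Among 51 Wnt, BMP, hedgehog and FGF genes the members were the ligands Wnt5a, Wnt10b, Fgf9 and Fgf15 and the Wnt inhibitor Sfrp5, or 9.80% (4.26 to 21.0%). Sfrp5 had both ends as members, and at its start H3K9ac was in all 4 lists (5.32 in Sham, 2.87 in Lam, 2.33 in SNA and 5.15 in DCA) while H3K27me3 was in Sham (1.37) and Lam (1.17). Fgf9, at its start, had H3K27me3 in Sham (1.07) and Lam (1.63) and H3K9ac in SNA (2.36) and DCA (2.66), with ATAC peaks in all 4. Of the Polycomb subunits, 28 of 29 had an acetylated end, 3 an H3K27me3 end, and Cbx8, a reader of H3K27me3, was the single member. Of 39 imprinted genes the members were Phlda2 and the amino acid transporter Slc38a4. Phlda2 had H3K27me3 in Sham (1.30) and Lam (2.25) and H3K9ac in Sham (3.55) and SNA (3.25).

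**Figure D4:**
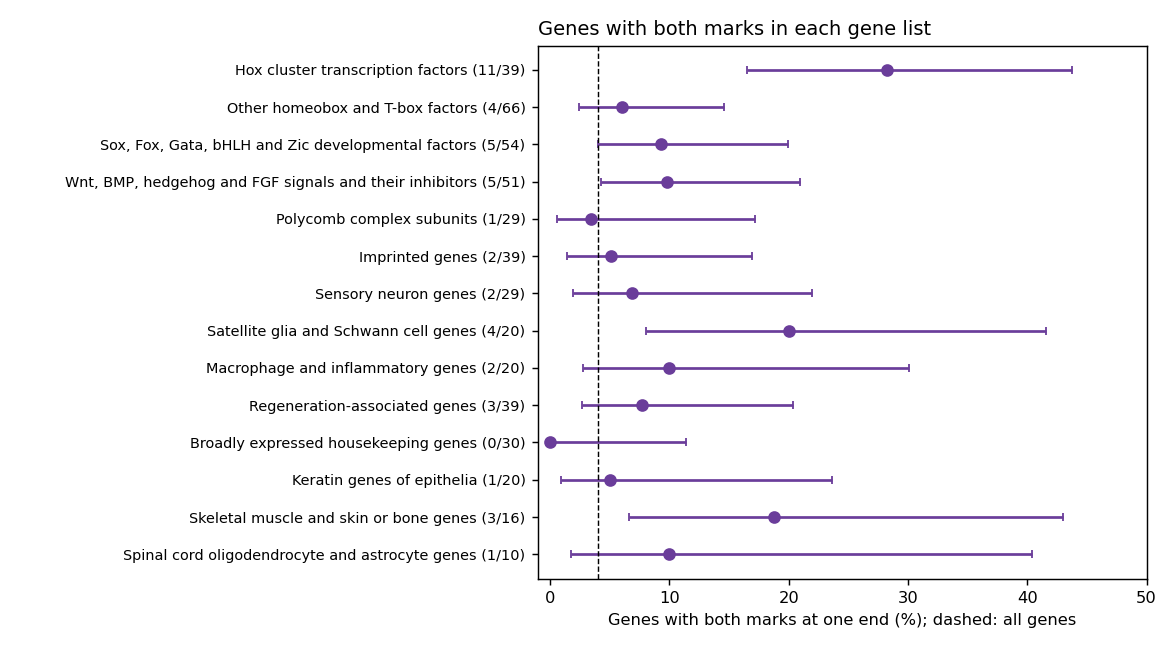
Share of the genes of each list that had both marks at one end (x axis, percent; points with Wilson 95% intervals; members and genes measured in brackets), with the share over all protein-coding genes as a dashed line at 4.03%. Hox genes stand at 28.2%, and none of the 30 housekeeping genes was a member.

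Genes that mark the cells of the ganglion were members in small numbers. Of 20 satellite glia and Schwann cell genes, 19 had an acetylated end and 6 an H3K27me3 end, and the members were Sox10, Kcnj10, Mbp and Slc1a3, or 20.0% (8.07 to 41.6%). Sox10, the master factor of peripheral glia, had H3K9ac in all 4 lists (3.92 in Sham, 3.03 in Lam, 4.55 in SNA and 5.66 in DCA) and H3K27me3 in Sham (1.06) and Lam (1.20). Kcnj10, the potassium channel of satellite glia, had H3K27me3 in Sham (1.03), SNA (1.21) and Lam (1.19) and H3K9ac in SNA (3.47), Lam (2.87) and DCA (3.07). Slc1a3, whose CpG-poor promoter is printed above, was acetylated at lysine 9 and lysine 27 in all 4 lists. Its H3K27me3 was in Sham (1.07), SNA (1.20) and DCA (1.21), and the Sham peak was short and lay on the start (chr15:8710779-8710943). Mbp, the myelin basic protein gene, had H3K27me3 in SNA (1.21) and Lam (1.18) and H3K9ac in all 4 lists.

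Of 29 sensory neuron genes, 8 had an acetylated end and 19 an H3K27me3 end, and Tubb3 and Calca were members. Tubb3 also stands in the regeneration list. It had H3K27me3 in Sham (1.03) and Lam (1.33), H3K9ac in all 4 lists (3.32 in Sham, 2.80 in Lam, 3.70 in SNA and 3.68 in DCA), H3K27ac in all 4 (4.60, 3.97, 3.08 and 5.15 in the same order) and ATAC in all 4. The Sham H3K27me3 peak (chr8:123408023-123414592) covered the printed Tubb3 promoter, and the Lam peak (chr8:123412142-123414455) lay inside the gene. Calca was at one of the 40 member ends with H3K27me3 in all 4 lists, with folds of 1.03 in Sham, 1.58 in Lam, 1.03 in SNA and 1.04 in DCA. Its H3K9ac was listed after both axotomies (4.48 in SNA and 3.72 in DCA) and in neither control, and its H3K27ac in Lam (3.68). The H3K9ac peak of SNA (chr7:114635781-114636440) reached into the printed Calca promoter.

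Of 39 regeneration-associated genes, 22 had an acetylated end, and Hspb1, Tubb3 and Itga7 were members, or 7.69% (2.65 to 20.3%). Hspb1, a small heat shock protein induced by nerve injury, had H3K27me3 at its start in Sham (1.15) and Lam (1.07) and H3K9ac in all 4 lists, with folds of 3.19 in Lam, 3.32 in SNA and 4.31 in DCA. Itga7, a laminin receptor subunit, had H3K27me3 in Lam (1.10) and DCA (1.23) and both acetylated marks in all 4 lists. Of 20 macrophage and inflammatory genes, Cd14, the coreceptor for lipopolysaccharide, and Ccl2, the monocyte chemokine, were members. Cd14 had H3K9ac folds of 4.75 in Sham, 2.72 in Lam, 7.21 in SNA and 4.93 in DCA and H3K27me3 in Sham and Lam at both ends. Ccl2 had H3K9ac after both axotomies (3.05 in SNA and 3.57 in DCA) and in neither control, and H3K27me3 in Sham (1.07) and SNA (1.11).

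Genes of other tissues gave Krt1 of 20 keratin genes, Ckm, Col2a1 and Lor of 16 muscle, skin and bone genes, and Aldh1l1 of 10 spinal glia genes. None of 30 housekeeping genes was a member, which with this number allows a share of up to 11.4%, and 29 of them had an acetylated end. Glial genes were acetylated at 19 of 20, sensory neuron genes at 8 of 29 and macrophage genes at 4 of 20, beside 57.3% of all protein-coding genes. Muscle, skin and bone genes were acetylated at 7 of 16, spinal glia genes at 4 of 10 and keratin genes at 4 of 20. The share for sensory neuron genes, 27.6%, was thus below the 43.8% of the muscle, skin and bone list and the 40% of the spinal glia list. These lists are short, no interval was computed for these shares, and the difference was not tested.

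**Figure D5:**
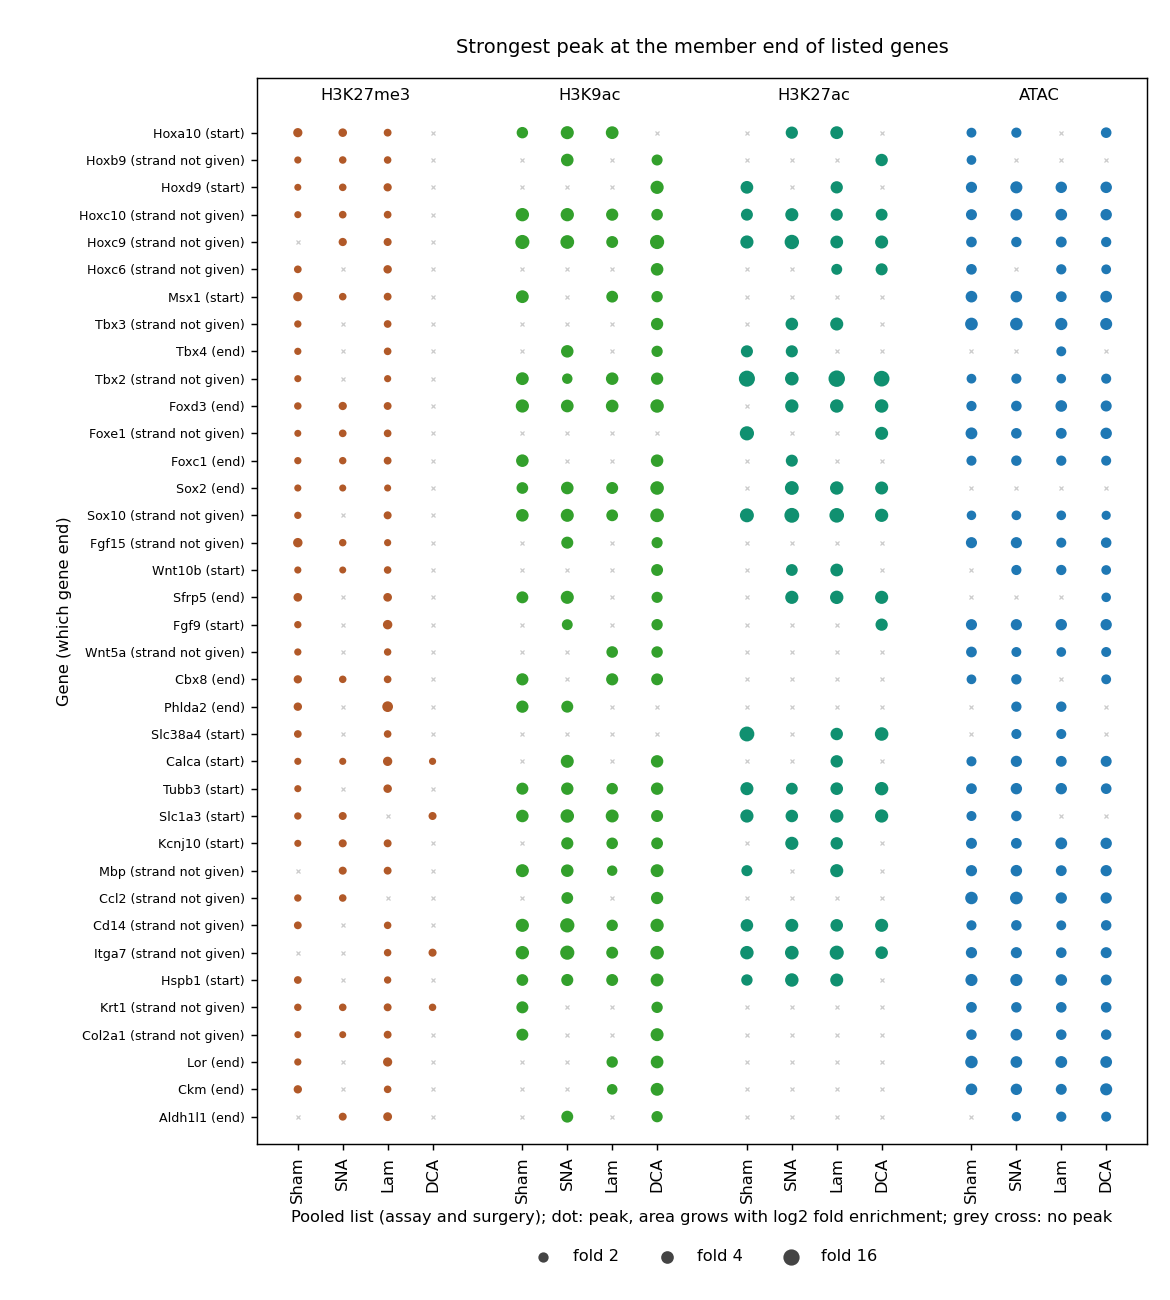
Peaks at the member end of each listed gene that is named (y axis) in the 16 pooled lists (x axis, 4 surgeries for each of 4 assays); a dot is the strongest peak, its area grows with the log2 of the authors' fold enrichment, and a grey cross means no peak. H3K27me3 dots are small in every list and nearly missing in DCA, where Calca, Slc1a3, Itga7 and Krt1 are among the genes with one.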

How the data were processed

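ChIP-seq of H3K9ac, H3K27ac and H3K27me3 and ATAC-seq were analysed from the 16 deposited peak lists, 1 per assay and surgery, each made from pooled replicates per the labels. The build is mm10 per the submitters' processing notes; the peak caller, its settings and read depth are not given in the sources used here, so the precision that depth gives is unknown. Each line of the deposited files holds a peak's interval, its linear fold enrichment (a ratio to the caller's background), its −log10 p-value and −log10 q-value, and a display score that was not used. Here, repeated ATAC intervals were collapsed to 1 (223066 lines to 153556 peaks in Sham). Gene positions came from RefSeq (GRCm38.p6), with strand from the promoter table for 17492 of 21887 genes. A peak counted at a gene end when at least 1 bp lay within 1000 bp. Gained and lost mean present in 1 of 2 lists; there is no test between surgeries.

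Genes named were those with both marks in most surgeries, up to 6 members of each of 14 gene lists by H3K27me3 −log10 p, members with a mark in both axotomies or both controls only, and members with an H3K27me3 q of at most 0.05; others were chosen after their values were seen. The members and lists were chosen with earlier results of these data known. The overlap code was checked on simulated data. Python 3.11.15, pandas 2.3.3, NumPy 2.4.6 and SciPy 1.17.1 were used. Alternatives changed the window, the number of lists, the H3K27me3 threshold, list lengths, the gene end, and the lists the rule reads.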

Additional observations from a re-analysis of the deposited data

Results flagged for a closer look

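At member ends the difference in the number of ends with a peak had opposite signs in the 2 axotomy comparisons for both acetylated marks. For H3K9ac the difference was -15 ends from Sham to SNA and 299 ends from Lam to DCA. The first gives no direction, since gains were 47.3% (41.5 to 53.2%) of the changed ends, and over all gene ends the differences were 918 and 3649, both upward. With lists of equal length gains of H3K9ac were 22.0% of the changed member ends from Sham to SNA and 73.6% from Lam to DCA. For H3K27ac the difference was 62 ends from Sham to SNA and -170 ends from Lam to DCA, and over all gene ends it was 2886 and -2395. With lists of equal length gains of H3K27ac were 37.3% of the changed member ends from Sham to SNA and 30.5% from Lam to DCA, so that losses outnumbered gains in both. Each value rests on 1 pooled list per surgery, and the difference between the axotomies was not tested.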

How the results depend on the processing

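The 16 values below were recomputed under 10 alternatives, of which leaving the lists of each surgery out of the rule in turn was chosen after seeing the data. Of 140 recomputed shares 77 stayed within the counting interval of the reported share, 57 moved further and 6 turned direction, and the cause was not tested. The number of member genes, 883 in the report, was 448 with a window of 500 bp, 1888 with 2 kb, 160 with each mark in 3 or more lists, 380 with lists of equal length, 528 at gene starts only, 310 without the Sham lists, 285 without the Lam lists, 640 without the SNA lists and 661 without the DCA lists. The share of H3K27me3 ends that were acetylated, 12.4% in the report, was in the same order 8.26, 18.9, 4.85, 8.50 and 17.6%, then 6.43% without Sham, 6.68% without Lam and 10.3% without DCA. With H3K27me3 peaks of a −log10 p of at least 2, 1 member gene remained and 6.67% of H3K27me3 ends were acetylated, so ATAC in Sham and overlap of the marks stood at 100% of 1 end, gains of H3K27me3 stood at 0% of changed ends from Sham to SNA and at 0% from Lam to DCA, and other shares of gains gave no value.

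ATAC in Sham stood at 77.0% of member ends with 500 bp, 85.8% with 2 kb and 87.9% at gene starts. The share of member ends with overlapping marks was 86.4% with 500 bp, 62.7% with 2 kb, 87.8% with 3 or more lists, 70.0% with equal lengths, 81.1% without Lam, 85.7% without SNA and 82.3% without DCA. Gains of H3K27me3 from Sham to SNA were 13.7% of changed ends with 500 bp, 23.9% with 2 kb, 50% with 3 or more lists, 26.2% with equal lengths, 3.63% without SNA, 50% without Lam and, in the other direction, 88.6% without Sham. Between Lam and DCA they were 2.39% with 500 bp, 7.2% with 3 or more lists, 12.5% with equal lengths, 2.5% at gene starts, 7.38% without Sham, 13.5% without Lam and 1.85% without DCA. From Sham to Lam they were 52.6% with 3 or more lists, 51.7% with equal lengths, 90.2% without Sham and, in the other direction, 19.8% without Lam. Gains of H3K9ac from Sham to SNA were 22.0% with equal lengths, 32.6% without SNA and 64.2% without Sham. From Sham to Lam they were 22.3% without Lam and, in the other direction, 54.0% without Sham, and from Lam to DCA 89.9% with 500 bp, 89.3% with 3 or more lists, 73.6% with equal lengths, 87.4% without Sham and 89.7% without DCA. Gains of H3K27ac from Sham to SNA were 50% with 3 or more lists, 52.7% without SNA and, in the other direction, 37.3% with equal lengths. Between Lam and DCA they were 15.4% with 3 or more lists, 30.5% with equal lengths and 11.4% without DCA, and from Sham to Lam 83.0% with 3 or more lists, 58.2% with equal lengths and 88.7% without Sham. Gains of ATAC from Sham to Lam turned to 46.4% with 3 or more lists and 46.9% without Lam, and were 50.8% without Sham.

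No paired analysis was possible because each deposited list pools the replicates of a surgery, and no replicate was left out in turn for that reason. Read depth is not known, so a missing peak is a peak not called, and most H3K27me3 calls had a −log10 p under 2.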
